A study of Mus musculus with 9 samples.

Results

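The regions described here are stretches of chromatin that were called open in all 3 kinds of peritoneal macrophage of the study and that lie at the edge of a protein-coding gene. Every peak of the 3 deposited ATAC-seq lists was merged with the peaks it overlapped by at least 1 bp. A merged region was kept if it held a peak of each list and lay within 1 kb of the start or end of a protein-coding gene in RefSeq (GRCm38.p6). Of 36843 merged regions, 6041 met both conditions. They made up 16.4% of all regions and 58.3% (95% Wilson interval 57.4 to 59.3) of the 10356 regions that all 3 lists share. Calls in all lists and distance to a gene chose the regions, so the counts of calls, the widths and the p-values given below describe them and were not tested.

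A promoter is the stretch around a gene's transcription start where general factors and RNA polymerase II assemble. In an active or poised promoter the nucleosome over the start is displaced or unstable, and the Tn5 transposase used in ATAC-seq inserts its adapters into the exposed DNA. Promoters of broadly expressed genes in mammals often lie in CpG islands, stretches that kept their CG dinucleotides because they escape DNA methylation in the germ line. Promoters of genes used in a single cell type or after a stimulus are more often poor in CpG and more often carry a TATA box.

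All 9 samples were FACS-sorted peritoneal macrophages of mice with the genotype Cx3cr1CreERT2-IRES-EYFP/+ Rosa26-stopfl-tdTomato/+, 3 samples in each of 3 groups. The Cre is expressed from the Cx3cr1 locus and acts only with tamoxifen, so the tdTomato mark depends on Cx3cr1 activity during tamoxifen exposure. The monocyte-derived group received 2 ml of thioglycollate, which recruits monocytes, and was harvested on day 4. The tissue-converted group received 2 ml of thioglycollate and a diet with tamoxifen for 8 weeks, and the labels name no treatment particular to the tissue-resident group. All mice of the 3 groups were injected with IL-4 complexes, 5 µg of IL-4 with 25 µg of antibody, every other day from 4 days before harvest. The labels attach 1 merged peak list to each group: there is no spread between replicates, no p-value between groups, and origin and treatment cannot be told apart. Intervals below cover counting error over regions or genes only, and genes that share a promoter or a duplicated sequence are not independent.

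The promoters of 6 genes show the range of starts that the results turn on. They are the 250 bases before the start from RefSeq (GRCm38.p6), written 5′ to 3′ on the gene's strand. Capitals mark the GC box (GGGCGG), the CCAAT box (CCAAT) and the TATA box (TATAAA) or their reverse complements. The first 4 starts lay in a region open in all 3 lists, and the last 2 had no region of any list within 1 kb of either gene end.
Cct2 (chr10:117063853-117064102, minus strand): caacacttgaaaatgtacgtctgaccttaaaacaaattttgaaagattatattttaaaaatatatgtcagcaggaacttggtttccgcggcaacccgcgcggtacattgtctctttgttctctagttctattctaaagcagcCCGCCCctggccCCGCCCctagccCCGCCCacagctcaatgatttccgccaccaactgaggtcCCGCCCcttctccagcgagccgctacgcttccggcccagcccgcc
B2m (chr2:122147437-122147686, plus strand): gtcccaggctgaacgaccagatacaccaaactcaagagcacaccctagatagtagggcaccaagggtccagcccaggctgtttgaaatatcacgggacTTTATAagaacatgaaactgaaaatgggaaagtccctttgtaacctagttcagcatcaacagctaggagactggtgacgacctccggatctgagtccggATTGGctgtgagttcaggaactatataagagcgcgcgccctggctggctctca
Jun (chr4:95052223-95052472, minus strand): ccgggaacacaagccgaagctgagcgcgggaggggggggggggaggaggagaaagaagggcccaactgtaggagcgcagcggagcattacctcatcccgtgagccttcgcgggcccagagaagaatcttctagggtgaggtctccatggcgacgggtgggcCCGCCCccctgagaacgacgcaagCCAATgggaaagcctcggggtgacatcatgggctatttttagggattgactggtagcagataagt
Irf8 (chr8:120736108-120736357, plus strand): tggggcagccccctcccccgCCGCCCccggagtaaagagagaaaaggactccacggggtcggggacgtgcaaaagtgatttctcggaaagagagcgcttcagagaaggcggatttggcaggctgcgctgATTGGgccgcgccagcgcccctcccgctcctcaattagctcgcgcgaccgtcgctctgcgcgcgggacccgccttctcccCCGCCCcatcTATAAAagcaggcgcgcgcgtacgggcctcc
Pparg (chr6:115360894-115361143, plus strand): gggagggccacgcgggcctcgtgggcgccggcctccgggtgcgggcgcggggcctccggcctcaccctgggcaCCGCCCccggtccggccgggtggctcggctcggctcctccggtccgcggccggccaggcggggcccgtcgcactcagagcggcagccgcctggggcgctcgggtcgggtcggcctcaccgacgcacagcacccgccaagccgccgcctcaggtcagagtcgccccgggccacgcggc
Il1b (chr2:129371140-129371389, minus strand): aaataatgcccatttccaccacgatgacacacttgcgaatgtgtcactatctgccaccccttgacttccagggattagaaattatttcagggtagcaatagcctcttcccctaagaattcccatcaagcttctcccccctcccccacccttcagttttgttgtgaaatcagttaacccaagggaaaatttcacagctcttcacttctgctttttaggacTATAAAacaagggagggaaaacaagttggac

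Cct2, a subunit of the chaperonin that folds actin and tubulin, has 4 GC boxes and neither of the other motifs in this stretch. B2m, the light chain of MHC class I, has 1 CCAAT box and 1 TATA match on the other strand at -152 bp, and Jun, an AP-1 subunit, has 1 GC box and 1 CCAAT box. Irf8, a factor of the monocyte and macrophage lineage, has 2 GC boxes, 1 CCAAT box and a TATA box whose first base lies at -31 bp. Pparg, a nuclear receptor of lipid handling and alternative activation, has a CpG-rich window but had no region. Il1b, an inflammatory cytokine, has a TATA box at -31 bp, 3 CpG in its window and no region.

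The regions marked starts far more often than ends. The strand of the nearest gene was known for 4936 of the 6041 regions, and the nearest gene end was a start in 4844 of these, 98.1% (97.7 to 98.5). Regions within 1 kb of a gene end that were called in the monocyte-derived list alone served as a comparison, since they pass the same distance rule. They were narrower than the shared regions, with a median width of 125 bp against 300 bp. Of 2919 such regions 91.8% lay nearest a start, 6.32 percentage points fewer (Newcombe interval 5.30 to 7.43). Of the shared regions 4166 (69.0%) covered a start or end themselves. A total of 1060 (17.5%) lay within 1 kb of the ends of at least 2 genes, against 18.0% of the monocyte-derived-only regions, a difference of -0.49 points (-2.09 to 1.08) whose interval holds 0.

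Only 92 of the 4936 regions were nearest to the far end of a gene, and 66 of these had none of the start sites in the RefSeq promoter table within 1 kb. That table was matched for 17274 of the 21631 genes, so starts of the others were not checked. In 2 of the 66 all 3 lists gave the smallest p-value in the files, 1e-12, which is a floor that many peaks share. They lay 487 bp from the end of Lars2, the mitochondrial leucyl-tRNA synthetase (chr9:123461764-123462188), and 606 bp from the end of Syce1l (chr8:113656139-113656463).

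The 1 kb limit cut through no gap in the distances. There were 48 shared regions more than 900 and at most 1000 bp from a gene end and 56 between 1000 and 1100 bp. The members closest to the limit lay near Pkd1 (1000 bp), Yeats4 (998 bp), Fmc1 (998 bp), Clk3 (997 bp) and Nfic (995 bp). The nearest regions left out lay near Lmnb1, Me2, Ctsz and Nudt9 (1001 bp each) and Slc46a3 (1003 bp). RefSeq also lists start sites of other transcripts, and 21.3% of the 4154 shared regions left out on chromosomes other than 18 lay within 1 kb of such a site.

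Around the start, the open interval lay mostly upstream in each list. For the 2580 genes whose outermost start is itself a listed start site, the centre of the nearest region had a median position of -43.5 bp (quartiles -102.5 and 10.5), and 85.2% of the regions covered the start. Monocyte-derived peaks covered the largest share of these genes at -21 bp (89.7%), converted peaks at -41 bp (71.4%) and resident peaks at -46 bp (78.4%). Coverage stayed at 50% of its highest value or above from -221 to 112 bp in the monocyte-derived list, from -190 to 89 bp in the converted list and from -203 to 97 bp in the resident list. The 3 profiles thus differed in height and in width, and peaks of the longest list reached furthest on both sides.

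**Figure D1:**
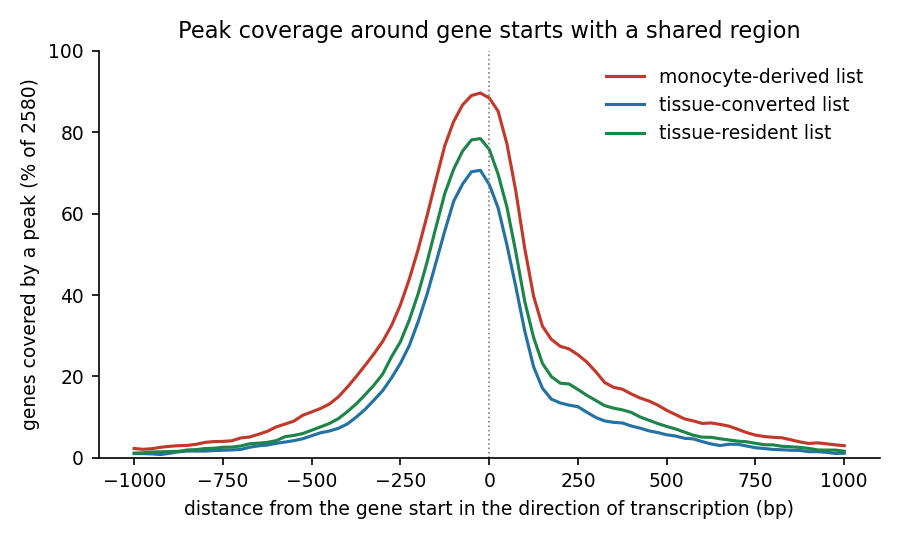
Share of 2580 genes with a shared region at the start whose sequence at each distance from the start is covered by a peak, in steps of 25 bp, with 1 line per deposited list. All 3 lines rise to their highest point within 50 bp upstream of the start, at 89.7% for the monocyte-derived, 78.4% for the resident and 71.4% for the converted list.

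The regions were narrow and called with very different strength. The median merged region was 300 bp wide (quartiles 250 and 400), with a range from 100 to 1600 bp at Ube2d3, a ubiquitin-conjugating enzyme. Within a region the monocyte-derived peaks covered a median of 300 bp, the resident peaks 250 bp and the converted peaks 200 bp. Converted peaks were split into more than 1 piece in 20.1% of the regions and resident peaks in 24.6%, against 7.50% for the monocyte-derived list. All 3 lists together covered 61.6% of the bases of the merged regions, and in 79 regions no base was called in all 3.

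P-values at the floor of 1e-12 were reached in the monocyte-derived list by 60.0% of the 6041 regions, in the resident list by 36.1% and in the converted list by 36.0%. All 3 lists were at the floor in 1608 regions (26.6%) and none in 2133 (35.3%). The shared regions away from gene ends reached the floor in all 3 lists in 10.2% of 4315. Regions at the floor in all 3 lists had a median width of 425 bp, those at the floor in none 225 bp. How many reads stand behind a p-value is unknown, because the lists give no counts, and the lists differ in length (33694 monocyte-derived, 15552 converted and 24348 resident peaks), so ranks between lists show no change.

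**Figure D2:**
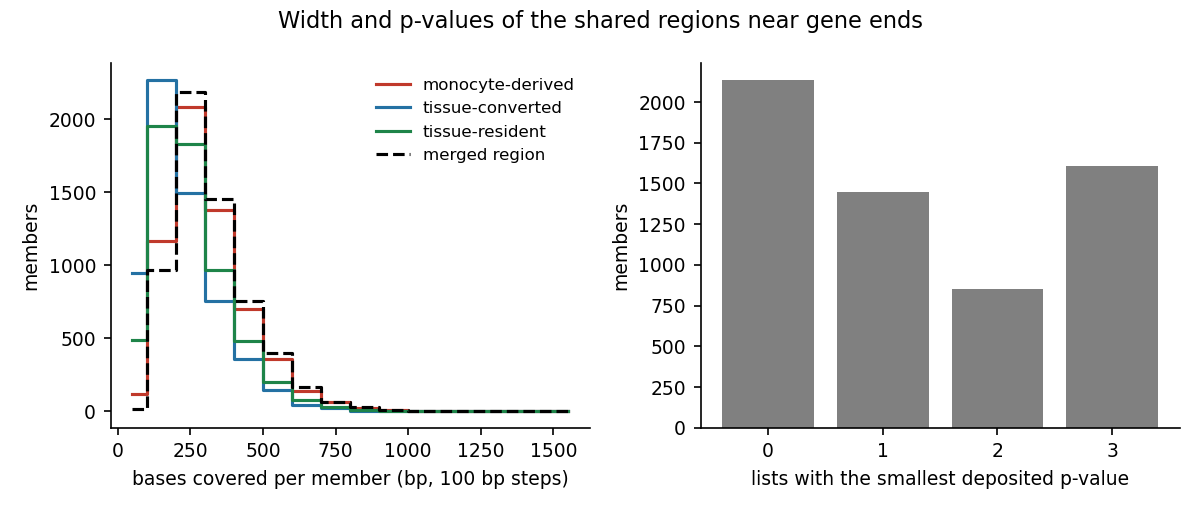
Left, number of shared regions near gene ends by the bases that each list covers in them, in 100 bp steps, with the merged region as a dashed line. Right, number of these regions by how many of the 3 lists gave the smallest deposited p-value, with 2133 regions at none and 1608 at all 3.

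Of 21631 protein-coding genes, 5858 had at least 1 of these regions within 1 kb of an end, 27.1% of all genes. A peak of the monocyte-derived list lay there for 42.4% of genes, one of the resident list for 36.9%, one of the converted list for 29.4%, and a region of any list for 44.9%. The share for all lists together is therefore close to that of the converted list, the shortest. Most genes had 1 region (4715), 1030 had 2, 107 had 3 and 6 had 4. When any RefSeq start site of a gene was allowed in place of its outermost start, 29.2% of 17274 genes had a shared region, an alternative added after the data were seen.

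Promoters of genes with a shared region at the start were rich in CpG. A promoter window, 250 bases before to 50 after the start, was matched for 81.8% of genes outside chromosome 18, where promoter sequence was not analysed. A window counted as CpG-rich with a CpG observed/expected ratio of at least 0.6 and a GC content of at least 50%. By this measure 80.5% (79.4 to 81.6) of 4662 genes with a shared region at the start were CpG-rich, against 23.4% (22.6 to 24.3) of 9652 genes with no region of any list there. The difference was 57.1 points (55.7 to 58.5). Genes with a monocyte-derived-only region and no shared region at the start lay between, at 67.3% of 1500. This was 13.3 points (10.7 to 15.9) below the genes with a shared region. Such genes could also hold a further region of the other lists at the start.

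Read from the promoter's side, 46.9% of 8003 CpG-rich promoters and 9.79% of 9271 others had a shared region. The share rose with the CpG ratio from 2.17% (1.75 to 2.68) below a ratio of 0.2 to 22.1% (20.4 to 23.8) between 0.4 and 0.6. Above a ratio of 0.8 it levelled off, at 49.5% (47.8 to 51.1) between 0.8 and 1 and 51.0% (48.4 to 53.6) at 1 or more. Along GC content the share was highest at 65 to 70% GC, 48.6% (46.5 to 50.8), and was 41.7% (34.9 to 48.7) at 80 to 85% GC, intervals that overlap. Exceptions ran both ways: the Pparg window has 80.3% GC and a CpG ratio of 0.91 and no region, while Clec4a3, a C-type lectin, had a shared region at a window of 54.3% GC and a ratio of 0.29.

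**Figure D3:**
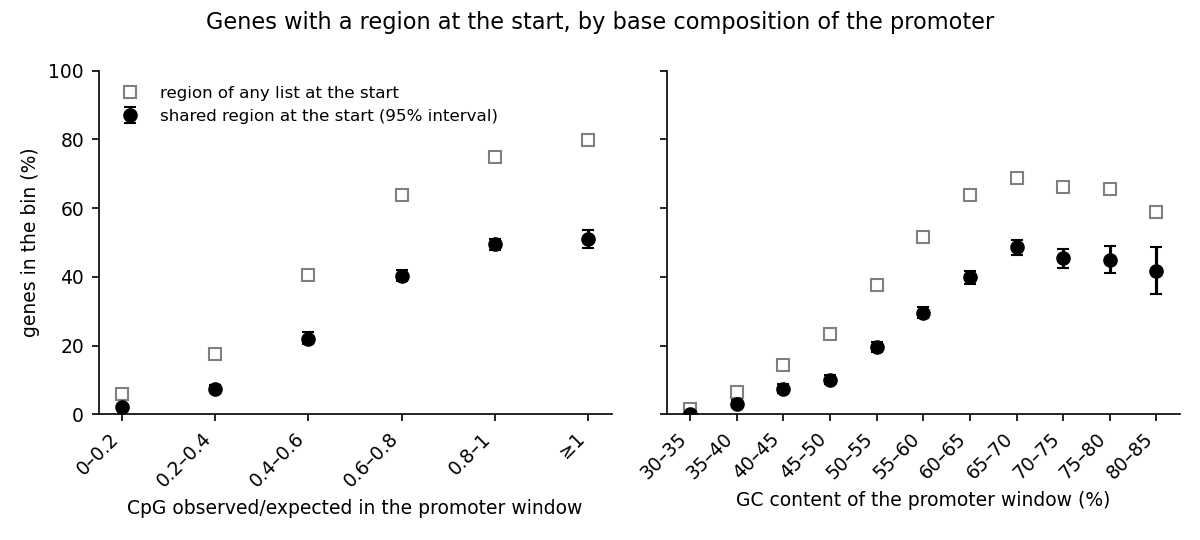
Share of genes with a region at the start by CpG observed/expected ratio (left) and GC content (right) of the promoter window, with filled circles for regions of all 3 lists (bars are 95% Wilson intervals) and open squares for a region of any list. The filled circles climb from 2.17% to 51.0% with the CpG ratio and reach 48.6% at 65 to 70% GC.

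Genes with a start of the opposite strand within 1 kb, on either side, carried a shared region more often than other genes of the same promoter class. Among CpG-rich promoters, 61.8% (59.2 to 64.3) of 1413 genes with a start of the opposite strand within 1 kb had one, against 43.7% (42.5 to 44.9) of 6590 without such a neighbour. The difference was 18.1 points (15.2 to 20.8). Because a region at the neighbour's start can count for both genes, the same was asked of regions that cover the gene's own start. This gave 51.0% against 36.6%, a difference of 14.3 points (11.5 to 17.2). A single region that covers both starts still counts for both genes. Counted by region, the trait did not set shared regions apart from monocyte-derived-only ones. Among regions near a start, starts of both strands lay near 13.5% of 4929 shared regions and 13.6% of 2742 monocyte-derived-only regions. The difference was -0.0752 points (-1.6977 to 1.4996).

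Genes on the X chromosome carried fewer of these regions. Of 966 X-linked genes 13.0% (11.1 to 15.3) had one, against 27.7% (27.1 to 28.4) of 20665 autosomal genes. Among CpG-rich promoters alone the shares were 32.3% of 226 on X and 47.3% of 7777 on the autosomes, a difference of -15.0 points (-20.9 to -8.59). The lowest autosome with promoter windows was chromosome 11, at 38.7% (35.1 to 42.4), an interval that overlaps the one of X (26.5 to 38.6). Every list was lower at CpG-rich starts on X: 54.9% against 69.4% in the monocyte-derived, 34.5% against 50.6% in the converted and 48.2% against 60.8% in the resident list. The labels do not give the sex of the mice. Of the X-linked genes looked up by name, Hprt, a purine salvage enzyme, had a region of 300 bp over its start, and Ndufa1, a subunit of respiratory complex I, had none.

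Short motifs were counted in the promoter windows on both strands, 14 in all, and their intervals are not adjusted for that number. A match shows that the letters are present, not that a factor binds. Since several motifs hold a CpG, the comparison that matters is among CpG-rich promoters. There were 3754 with a shared region, 2259 with no region and 1009 with a monocyte-derived-only region and no shared one. The CCAAT box, the site of the trimeric factor NF-Y, was present in 46.3% of promoters with a shared region, 28.8% of those with none and 26.1% of those with a monocyte-derived-only region (37.4% of all CpG-rich windows). The differences were 17.5 points (15.0 to 19.9) and 20.2 points (17.0 to 23.3). The GC box, the site of SP1 and related KLF factors, was present in 80.6%, 74.4% and 68.8% (76.8% of all), with differences of 6.26 points (4.08 to 8.48) and 11.9 points (8.78 to 15.0).

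ETS, YY1 and NRF1 motifs followed another order. The core of the ETS site, CCGGAA, was present in 35.1% of promoters with a shared region and 21.2% with none, a difference of 13.9 points (11.6 to 16.2), but in 38.8% with a monocyte-derived-only region. Shared minus monocyte-derived-only promoters differed by -3.62 points (-7.01 to -0.28). YY1 (AAGATGG) was present in 7.65%, 4.34% and 10.3%, and NRF1 (GCATGCG) in 8.15%, 5.80% and 10.2% of the same 3 groups. For both, the shared promoters lay above those with no region and below those with a monocyte-derived-only region, by intervals that exclude 0. Over all CpG-rich windows these motifs were present in 31.4%, 7.05% and 7.83%.

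The other 9 motifs, among them those of factors that drive macrophage and stimulus-dependent genes, showed differences under 3 points among CpG-rich promoters. A difference in points is limited by how rare a motif is. The most frequent of the 9 was present in 12.5% of promoters with a shared region. NRF1 differed by under 3 points too, by 2.35 points from promoters with no region and -2.06 points from monocyte-derived-only ones. The PU.1 site (GAGGAAG) was present in 12.5% with a shared region and 11.1% with none, a difference of 1.41 points (-0.29 to 3.06). Against promoters with no region the intervals also held 0 for the C/EBP site (TTGCNNAA), the AP-1 site (TGANTCA), the NF-kappaB site (GGGANNTTCC), the composite PU.1-IRF site (GGAANNGAAA), the E-box CACGTG and the TATA box. The STAT6 site (TTCNNNNGAA) was present in 4.66% against 3.23%, 1.43 points more (0.40 to 2.40), and the CRE (TGACGTCA), where CREB and ATF factors bind, in 4.24% against 2.92%, 1.31 points more (0.33 to 2.24). Against monocyte-derived-only promoters the PU.1 site was more frequent with a shared region, by 2.41 points (0.15 to 4.44), and the AP-1 site less frequent, at 2.82% against 4.76%, a difference of -1.93 points (-3.50 to -0.65). The intervals of the other 7 of these 9 motifs held 0 in that comparison. Over all promoters, CpG-poor ones included, the TATA box was less frequent with a shared region (5.41%) than with no region (19.0%), and so were the AP-1 (3.75% against 9.17%) and C/EBP sites (7.08% against 12.2%).

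Promoters with both a GC box and a CCAAT box had a shared region most often. Of CpG-rich promoters with neither, 33.8% (31.1 to 36.6) of 1136 had a shared region. The share was 42.2% (40.6 to 43.7) of 3871 with a GC box alone, 47.6% (44.0 to 51.3) of 720 with a CCAAT box alone, and 61.2% (59.2 to 63.2) of 2276 with both. In the promoters with a shared region the 3896 CCAAT matches had a median position of -80.5 bp and the 8465 GC boxes one of -63 bp. The YY1 matches lay on the other side of the start more than any other motif, with 43.3% of 363 within the first 50 bp after it.

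**Figure D4:**
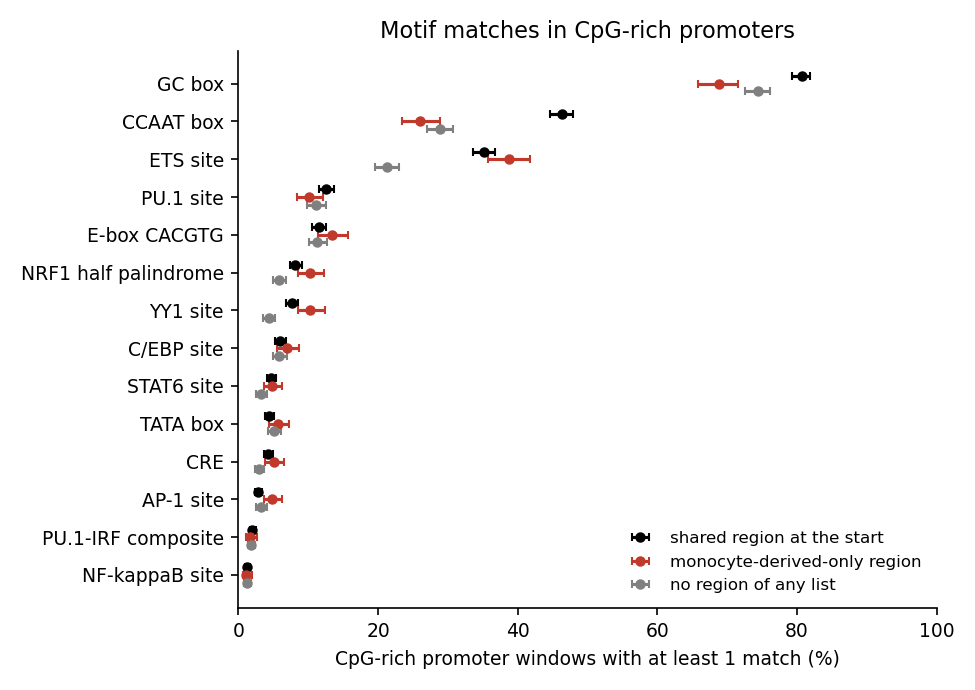
Share of CpG-rich promoter windows with at least 1 match to each of 14 motifs on either strand, for genes with a shared region at the start (black), a monocyte-derived-only region (red) or no region (grey), with 95% Wilson intervals. The CCAAT box separates the black point (46.3%) from the red (26.1%) and grey (28.8%) points most, and the ETS site is the motif where grey (21.2%) lies furthest below the other groups.

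Genes were then read by what they do, in 38 lists with 2985 different genes. Against the 27.1% of all genes with a shared region, genes of the cell's basic machinery stood high: 269 of 586 genes (45.9%) in 12 lists of such machinery had one. Most of their promoter windows were CpG-rich, from 61.1% for the vacuolar ATPase to 93.8% for splicing factors. Of all CpG-rich promoters 46.9% had a shared region at the start, close to the machinery share. What part base composition has in the list shares was not tested. For the same 586 genes the monocyte-derived list had a peak at 82.6%, the resident list at 63.3% and the converted list at 48.3%. All 8 genes of the chaperonin CCT had a shared region, as did 19 of 31 ubiquitin E2 enzymes, 13 of 23 nuclear pore proteins, 28 of 55 translation initiation factors, 30 of 59 Rab GTPases and 29 of 58 splicing factors. The other machinery lists were lower: 35 of 78 mitochondrial ribosomal proteins, 21 of 48 proteasome subunits, 17 of 41 RNA polymerase II and Mediator subunits, 31 of 80 oxidative phosphorylation subunits, 30 of 81 cytosolic ribosomal proteins and 8 of 24 vacuolar ATPase subunits. With p at most 1e-10 in every list 8.38% of all genes had a shared region, and 4 of the 12 lists lay below that share: proteasome (0 of 48), vacuolar ATPase (0 of 24), RNA polymerase II and Mediator (3 of 41) and ubiquitin E2 enzymes (2 of 31).

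The chaperonin genes show how the 3 lists met at such a start. Over the start of Tcp1 the monocyte-derived list covered 500 bp, the resident list 450 bp and the converted list 425 bp, all at the p-value floor. At Cct7 the widths were 450, 425 and 375 bp, again at the floor in each list. Over Cct3 the converted peak was narrow (75 bp, with a deposited peak p-value of 5.61e-06) beside 400 bp in the monocyte-derived and 300 bp in the resident list. Cct2, whose promoter is printed above, had 3 adjacent regions, and the one over the start was 350 bp wide, with 350, 325 and 325 bp in the monocyte-derived, converted and resident lists.

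Among the ribosomal genes, Rpl15, Rps21 and Rpl37 had regions at the floor in all lists, and 9 of the 81 genes had one with p at most 1e-10 in every list, while Rpl10, Rpl10a and Fau had no shared region. Of the 81 genes of that list 72 had a monocyte-derived peak, 49 a resident peak and 31 a converted peak. The gap between the monocyte-derived and the shared count was thus wider than for the chaperonin, where each list had all 8. Of genes often used as references, Gapdh had 2 shared regions, Polr2a, Rpl13a and B2m 1 each, and Ppia, Tbp, Rps18, Psmb4 and Actb none. Actb had 2 shared regions inside the gene, 1113 and 1763 bp from its outermost end and so beyond the 1 kb limit. Its strand was not matched, and whether these regions lie at a start site was not tested. Over B2m the monocyte-derived peak was 550 bp, the resident 325 bp and the converted 100 bp.

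Among genes that answer quickly to signals, a shared region lay at 16 of 25 immediate early genes, 64.0% (44.5 to 79.8), against 27.1% of all genes. The share was 53.3% (30.1 to 75.2) for NF-kappaB subunits and inhibitors, 8 of 15, and 50.0% (26.8 to 73.2) for IL-4 receptor signalling, 7 of 14, an interval that holds the share of all genes. With p at most 1e-10 in every list, 1 of the 15 NF-kappaB genes (6.67%) remained, below the 8.38% of all genes. The start of Jun lay in a region of 925 bp at the floor in all lists, covered over 925 bp by monocyte-derived, 625 bp by resident and 575 bp by converted peaks. Btg1, an antiproliferative gene, was also at the floor in all 3 lists, as was a region 866 bp from the start of Junb, whereas over Fos the converted peak was 75 bp, with a deposited peak p-value of 9.72e-06. Egr2, Egr3 and Nr4a1 of the same list had no region of any list within 1 kb of an end, although Egr2 had 2 shared regions and Nr4a1 1 further inside the gene.

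Along the IL-4 pathway, the receptor chain Il4ra, the kinases Jak1 and Tyk2, the adaptor Irs2 and the feedback inhibitors Socs1 and Cish had a shared region, and so did Stat3. Stat6, the pathway's main transcription factor, had none: regions within 1 kb of its ends were called in the monocyte-derived and resident lists or the resident list alone. Of the genes that IL-4 induces in macrophages, 4 of 24 had a shared region, 16.7% (6.68 to 35.9), an interval that holds the 27.1% of all genes. These were Klf4, Irf4, Fn1 and Slc7a2. Arg1 turns arginine into ornithine, and Retnla is a secreted resistin-like protein. Within 1 kb of their ends both had peaks of the monocyte-derived and resident lists but none of the converted list. Mrc1, the mannose receptor, and Pparg had no region of any list within 1 kb of an end and no shared region inside the gene.

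Inflammatory mediators were the signal-response genes without a shared region, 0 of 24. The monocyte-derived list had a peak at 11 of them, the resident list at 4 and the converted list at 1, Cxcl2. These are 45.8%, 16.7% and 4.17%, against 42.4%, 36.9% and 29.4% of all genes. The monocyte-derived share is thus near that of all genes. Of the 17 mediators with a promoter window 2 were CpG-rich, and 9.79% of all promoters that are not CpG-rich had a shared region. Tnf had a monocyte-derived and a separate resident region. For Il1b, Il6 and Nos2 none of the lists had a peak within 1 kb of either end.

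The labelled cell type was checked at genes of macrophage identity. Of 27 genes of macrophage lineage and function 8 had a shared region (29.6%), close to the share of all genes, among them the factors Maf, Cebpa, Cebpb, Irf8 and Mitf, the galectin Lgals3 and the inhibitory receptor Sirpa. The region over the start of Irf8 was 225 bp wide and far from the floor in every list, with deposited peak p-values of 3.38e-06 in the monocyte-derived, 4.70e-06 in the converted and 3.39e-06 in the resident list. Spi1, which encodes PU.1, and Adgre1, which encodes F4/80, had no converted peak within 1 kb of an end. A converted peak lay there for 9 of the 27 genes (33.3%), against 29.4% of all genes. Csf1r, the receptor for the growth factor CSF1, had no region of any list within 1 kb of its ends. It had 1 shared region inside the gene, 2867 bp from the nearer end.

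Of genes that distinguish resident from recruited macrophages, a shared region lay at 6 of 25 genes of large peritoneal macrophages, the long-lived resident type, among them Garnl3, Klf9 and Bhlhe40. It lay at 4 of 20 genes of monocytes and small peritoneal macrophages, among them Itga4. These shares, 24.0% (11.5 to 43.4) and 20% (8.07 to 41.6), have intervals that hold the 27.1% of all genes. Gata6, the factor that defines the resident type, had regions of the converted list alone and the resident list alone. Lysosomal hydrolases stood higher, at 15 of 26, with Ctsc, Npc2 and Scarb2 at the floor in all lists. Of 15 genes of MHC class I presentation 6 had a shared region, and of 23 interferon-stimulated genes 7, among them Stat2 and Ifih1. In the list for MHC class II presentation 1 of 14 genes had one. This was Cd80, a costimulatory ligand that is not itself an MHC class II gene, while Cd74 and Ciita had none.

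Few markers of other cells had a shared region. Markers of B cells, T and NK cells, dendritic cells, neutrophils, mast cells, eosinophils and mesothelial or stromal cells made 7 lists with 89 different genes. Of these 2 had a shared region (2.25%) and 19 a region of any list, against 27.1% and 44.9% of all genes. Few of their promoter windows were CpG-rich, from 0% for neutrophil to 27.3% for dendritic cell markers. Of all promoters that are not CpG-rich, 9.79% had a shared region. The 2 markers with a shared region were Tcf4, at 810 bp from an end, and the neutrophil collagenase Mmp8, whose region lay 823 bp beyond the far end of the gene. Counts of 0 stood for B cell (0 of 16), T and NK cell (0 of 16), mast cell (0 of 9), eosinophil (0 of 7) and stromal markers (0 of 13). The dendritic cell list had a monocyte-derived peak at 8 of 14 genes, a resident peak at 5 and a converted peak at 1. These are 57.1%, 35.7% and 7.14%, against 42.4%, 36.9% and 29.4% of all genes. What part cells other than macrophages have in the lists was not tested.

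Gene families that are silent outside their own tissue had almost none of these regions. The counts were 0 of 39 Hox genes, 0 of 53 keratins, 2 of 68 protocadherins, 3 of 1106 olfactory receptors and 1 of 353 vomeronasal receptors. Of 940 olfactory receptor genes with a promoter window 0 were CpG-rich. The large families of Kruppel-type zinc finger genes, with 142 of 390 (36.4%), and canonical histones, with 22 of 63 (34.9%), lay above these and near the lowest machinery lists, the ribosomal proteins (37.0%) and the vacuolar ATPase (33.3%). With all lists cut to the length of the shortest, the histones (5 of 63) and the vacuolar ATPase (2 of 24) fell below the 19.4% of all genes. The zinc finger genes (27.4%) and cytosolic ribosomal proteins (32.1%) stayed above it.

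**Figure D5:**
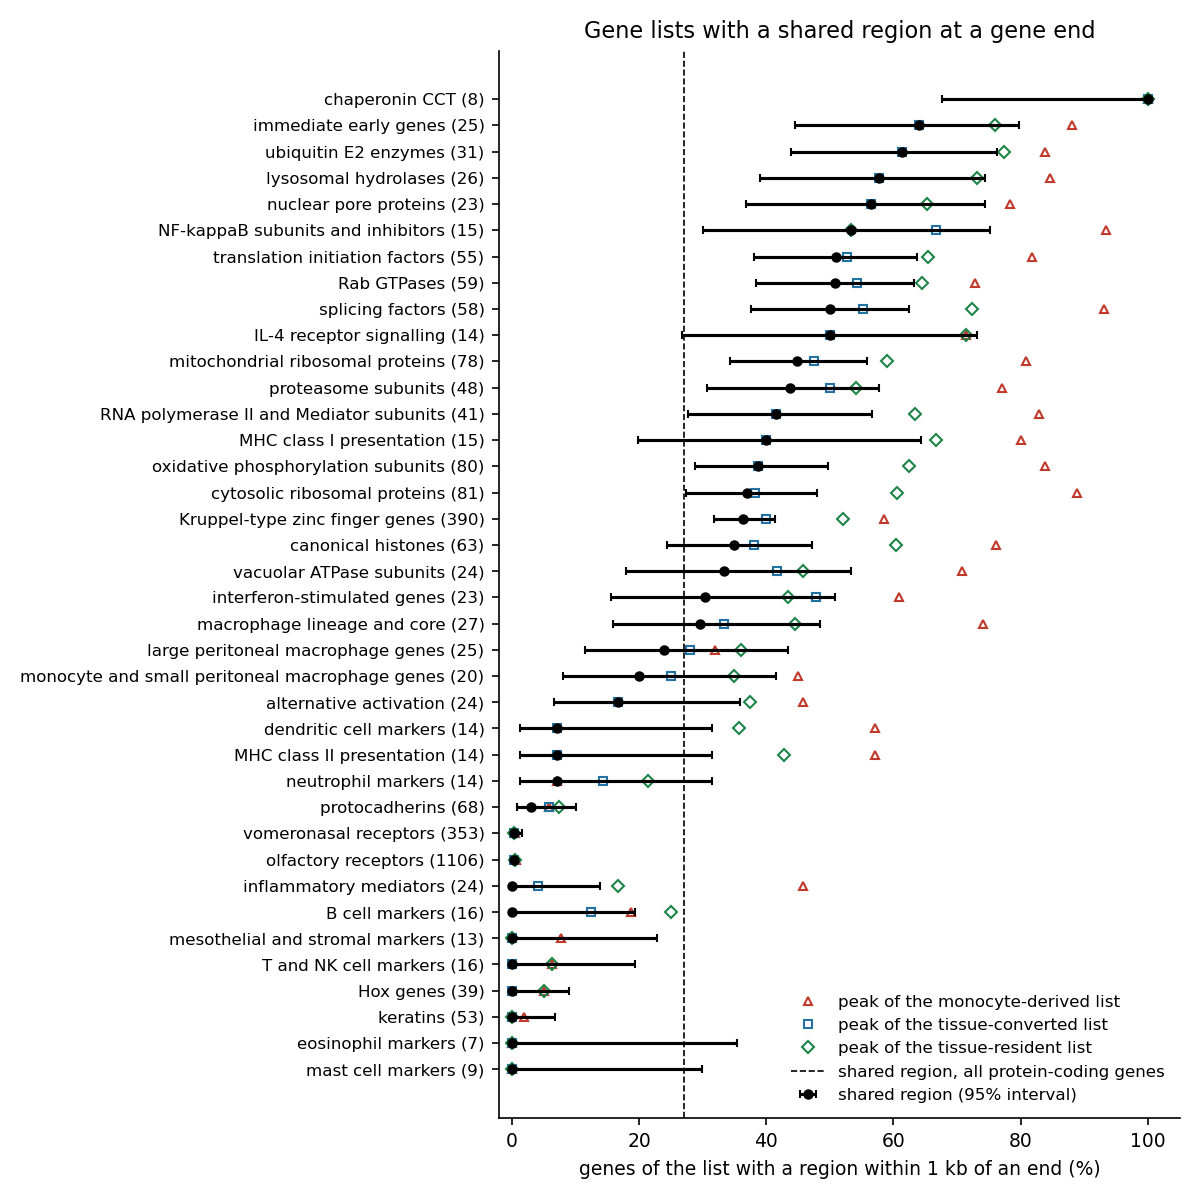
Share of each gene list with a shared region within 1 kb of a gene end (black circle with 95% Wilson interval) and with a peak of each deposited list (open symbols), list sizes in brackets; the dashed line is the 27.1% of all protein-coding genes. The chaperonin list is at 100%, the lists of other cell types and tissue-restricted families lie at or near 0, and the monocyte-derived symbols lie furthest right in most lists.

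The widest regions at the floor in all 3 lists belonged to genes of regulation, transport and metabolism. Zbtb20, a zinc finger repressor, had 1275 bp (chr16:42874914-42876188), of which monocyte-derived peaks covered 1225 bp, converted peaks 1100 bp and resident peaks 1000 bp. Lnpep, an aminopeptidase of endosomes, had 1150 bp, Rap2a, a small GTPase, 1100 bp, and Mon1b, a factor of endosome maturation, 1075 bp. Other wide regions were those of Fkbp2 (1075 bp), Mat2a, which makes S-adenosylmethionine (1025 bp), Rab5a of early endosomes (1000 bp) and Dipk2a (950 bp). At Mat2a the monocyte-derived list covered all 1025 bp and the converted and resident lists 475 and 425 bp, while at Mon1b the 3 lists covered 1025, 1050 and 1050 bp. These regions were chosen by their width, which is therefore no finding.

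A few starts carried a chain of separate regions. The first 5 genes with 4 shared regions were Hddc2, Kctd12, Mkks, Pnpla8 and Slx4ip. Mkks and Slx4ip share theirs, since their starts lie on opposite strands within 1 kb of each other and the genes overlap there. At Hddc2 the 4 regions spanned chr10:31312864-31313738 and were 150 to 250 bp wide, 2 of them at the floor in all lists. At Pnpla8 the region over the start (400 bp) was followed directly by the next without a gap, so that the rule of at least 1 shared base kept them apart. At Kctd12 1 of the 4 lay 418 bp from the far end of the gene.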

How the data were processed

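Open chromatin was profiled by ATAC-seq in 9 samples of sorted peritoneal macrophages, 3 in each of 3 groups. Per the submitters' processing notes, the aligner was Bowtie2 2.2.9 and the genome build mm10 (GRCm38). How peaks were called, duplicates handled, cut sites shifted for Tn5 and replicates merged was not given in the sources used here. Each could change which weak regions are called in all 3 lists.

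The authors deposited 1 merged peak list per group with positions and 1 p-value per peak, not below 1e-12, and peak edges on a grid of 25 bp. The lists hold no counts, so sequencing depth is unknown and a region absent from a list may be closed or below detection. The largest p-value was 1.50e-05 in the resident, 1.01e-05 in the monocyte-derived and 9.72e-06 in the converted list.

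Peaks were merged where they shared at least 1 bp. Gene ends are the outermost coordinates of 21631 protein-coding genes (RefSeq, GRCm38.p6). Strand and promoter windows (300 bases) were matched for 17274 of them, 79.9%, and for 84.5% of the genes with a shared region outside chromosome 18. Start and end could not be told apart for the rest, 1105 regions. Motifs were searched as exact letters on both strands. Intervals are at 95%, by Wilson's method for a share and by Newcombe's for a difference. The 38 gene lists held 2985 genes, and 2 symbols were not found. Named genes are 33 looked up in any case, the 3 with the lowest mean p-value rank (ties by width) and the first 3 unmarked genes of a list, the 10 widest regions at the floor, the 5 genes with most regions, and the 5 regions on each side of the limit; some of these genes are not reported here. Other list members are named for their calls, after these were seen. The regions, lists and motifs were chosen with earlier results of these data known. The merging and intervals were tested on simulated data. Python 3.11.15, numpy 2.4.6, pandas 2.3.3, scipy 1.17.1 and matplotlib 3.10.9 were used.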

Additional observations from a re-analysis of the deposited data

How the results depend on the processing

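No paired analysis was possible because the replicates of a group were deposited as a single list. Of the recomputed values of the main results, 68 stayed the same by a fixed rule and 34 did not. A share had to stay within its interval and a count within 1.5 times. A difference had to keep its direction with an interval excluding 0, or keep an interval holding 0. The difference in lying near 2 or more genes thus counted as the same although it changed sign. It was 0.44 points with 500 bp, 1.70 with merging within 200 bp and 0.76 with lists of equal length. With a distance of 500 bp, 54.1% of shared regions were near gene ends, 25.5% of genes had one, 98.9% lay nearest a start and 15.5% near 2 or more genes; with 2.5 kb these were 63.5%, 29.7%, 96.6% and 22.0%, and 79.1% of starts were CpG-rich. Requiring 50% of the shorter peak to overlap gave 26.4% of genes. Merging within 200 bp gave 56.8% near gene ends, 29.5% at the floor in all lists and a median width of 425 bp. With p at most 1e-05 in every list, 60.2% were near gene ends, 23.7% of genes had one, 31.7% were at the floor and the median width was 325 bp. With p at most 1e-10 the count fell to 1609 regions, 78.4% of shared regions and 8.38% of genes, with 99.5% nearest a start, 100% at the floor by construction, a width of 400 bp and 83.8% CpG-rich; the difference from monocyte-derived-only regions in lying near 2 or more genes became -3.81 points, and the cause was not tested. With all lists cut to the shortest there were 3987 regions, 65.0% of shared regions and 19.4% of genes, with 98.7% nearest a start, 40.3% at the floor, a width of 350 bp and 81.7% CpG-rich. A CpG ratio of at least 0.75 with 55% GC left 56.9% CpG-rich. Any listed start site, added after the data were seen, gave 29.2% of genes.

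The differences in CpG-rich share, in nearness to a start, on the X chromosome and at opposite starts kept their direction, with intervals excluding 0, in each alternative run. They were smaller with p at most 1e-10 in every list. The CpG-rich share then differed by 46.4 points from genes with no region and 4.39 points (1.44 to 7.38) from monocyte-derived-only ones. Nearness to a start differed by 2.19 points (1.24 to 3.30), X from autosomes by -9.19 points and opposite starts by 9.54 points. Between all promoters and CpG-rich ones, the C/EBP difference between shared and no region turned to 0.18 points and the STAT6 difference to 1.43 points, and those of the E-box, TATA box and AP-1 site came to hold 0. Of 38 gene lists, 35 stayed on the same side of the share of all genes with gene starts alone, 33 with lists of equal length and 29 with p at most 1e-10, where 9 fell below it: proteasome, RNA polymerase II and Mediator, ubiquitin E2, vacuolar ATPase, histone, NF-kappaB, macrophage lineage, MHC class I and interferon. With gene starts alone, vacuolar ATPase and interferon fell below it and large peritoneal macrophage genes rose above it. With lists of equal length these changed side again, and histone and macrophage lineage fell below it. Unknown depth limits what a region absent from a list can mean.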

Other observations

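Some shared regions stood at genes of families in which a region was rare. Vmn1r4, 1 of 353 vomeronasal receptor genes, had 2 adjacent regions (chr6:56923714-56924113 and chr6:56924139-56924338) at the floor in all 3 lists, although its promoter window has 31.0% GC and a CpG ratio of 0.14. Pcdh17, a protocadherin, had a region of 375 bp over its start at the floor in all lists. The olfactory receptor genes Olfr658, Olfr433 and Olfr1033 had 1 region each. Of the genes with a region at the floor in all 3 lists at the start, 84.4% were CpG-rich. Where no list was at the floor the share was 76.7%, and the region covered the start in 89.8% against 69.1%. The regions at the floor in all 3 lists were also wider, with a median of 425 bp against 225 bp. What part width has in covering the start was not tested. Regions in the monocyte-derived and resident lists but not the converted one lay near gene ends in 42.1% of 5289 cases, and those of the converted and resident lists alone in 23.2% of 715.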
